A study of Mus musculus with 4 samples.

Results

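The genes that make, break down and regulate polyamines were followed by bulk RNA sequencing of mouse PMN-MDSCs, the granulocytic myeloid-derived suppressor cells, which share surface markers with neutrophils and restrain other immune cells. The set has 10 genes, taken by symbol from the 28585 genes listed, and all 10 were found and tested. They are *Odc1*, *Amd1*, *Srm* and *Sms* for synthesis, *Sat1*, *Smox* and *Paox* for catabolism, and *Azin1*, *Oaz1* and *Oaz2* for the antizyme system that controls ornithine decarboxylase. The 4 libraries were prepared from 300000 splenic cells each, taken from pups on postnatal day 7 and gated as CD11b+ Ly6C lo/- Ly6G+. Of these, 2 libraries (replicates 1 and 2) carry the label Dhps cko and came from Dhps fl/fl Lysm cre pups, called DhpsΔLysm, and 2 (replicates 1 and 2) carry the label Dhps flox and came from Dhps fl/fl littermates without the Cre. Both genotypes are on the C57BL/6J background and share the floxed *Dhps* allele, and pups of both sexes were used in the study. *Dhps* encodes deoxyhypusine synthase, which consumes spermidine to modify the translation factor eIF5A, and the comparison asks whether its loss in cells with *Lysm* (*Lyz2*) promoter activity goes along with other transcript levels in the polyamine pathway. The labels do not say whether a library is 1 pup or a pool. Every library held both *Xist*, a transcript of female cells, and Y-linked transcripts of male cells, as a pool of both sexes would. The p-values measure only the spread between these libraries, which may be technical.

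The libraries had about 29800000 to 31900000 fragments each, as estimated from the steps between low values. FPKM (fragments normalised to transcript length and to library size) summed to between 304281 and 319286, with 10611 to 10729 genes at 1 FPKM or more. The targeted gene *Dhps* stood at 2.38 and 2.59 FPKM in DhpsΔLysm, against 3.57 and 3.11 FPKM in Dhps fl/fl, which is a log2 fold change of -0.41 ± 0.13 (SE), with an adjusted p of 0.63 by limma with Benjamini-Hochberg adjustment. Its DhpsΔLysm mean was thus 74.4% of that in Dhps fl/fl, and both DhpsΔLysm libraries were below both controls. These FPKM cover the whole gene and do not show whether the floxed part was removed. Of the exon bases of *Dhps*, 5.5% are shared with *Wdr83* on the opposite strand. *Lyz2*, the gene that carries the Cre, was at 2245 and 2380 FPKM against 6874 and 6544 FPKM (log2 fold change -1.54, limma adjusted p = 0.083). All 12 neutrophil markers looked at were above 0 in every library, with sums of 78140 to 80490 FPKM in DhpsΔLysm and 73700 to 77850 FPKM in Dhps fl/fl. Markers of other cells were present at lower sums, and 4 of these lists did not overlap between genotypes and were higher in DhpsΔLysm. The 8 monocyte and macrophage genes summed to between 362.3 and 370.8 FPKM against 297.4 to 301.1 FPKM, the 7 B cell genes to between 64.7 and 67.4 against 41.3 to 50.6 FPKM, the 6 T cell genes to between 12.8 and 15.9 against 6.62 to 9.73 FPKM, and the 4 eosinophil genes to between 10.4 and 11.8 against 8.24 to 8.66 FPKM. The sums of the erythroid, platelet, early neutrophil and proliferation lists overlapped. No gene of these lists was at 0 in all libraries.

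Polyamines are small positively charged molecules that bind nucleic acids and are needed for growth and translation. Ornithine decarboxylase makes putrescine from ornithine, and spermidine synthase and spermine synthase add aminopropyl groups supplied by S-adenosylmethionine decarboxylase. Spermidine and spermine are turned back by acetylation and oxidation. When polyamines are plentiful, ribosomes shift frame on the antizyme mRNA and complete the antizyme protein, which binds ornithine decarboxylase and sends it to the proteasome, and antizyme inhibitor binds antizyme in turn.

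Transcripts of the antizyme system and of *Sat1* were the most abundant of the set, and those of *Srm* and *Sms*, whose products build spermidine and spermine, the least. On the FPKM scale, which corrects for transcript length, the order of the means over the 4 libraries was *Oaz1*, *Sat1*, *Azin1*, *Oaz2*, *Smox*, *Amd1*, *Odc1*, *Paox*, *Sms* and *Srm*. *Oaz1* (mean level 83.3 FPKM) and *Sat1* (77.6 FPKM) had overlapping ranges, although *Oaz1* was the higher of the pair in 4 of 4 libraries. *Paox* (1.70 FPKM) and *Sms* (1.66 FPKM) overlapped too, with *Paox* higher in 3 of 4. For the other 7 neighbouring pairs in this order, the ranges over the 4 libraries did not overlap. *Oaz1* and *Sat1* ranked above 97.8% and 97.7% of the 17948 genes tested by their mean level, while *Srm* ranked above 41.0%. Together the 10 genes made up 0.0756% to 0.0779% of all FPKM in a library. The plot of levels by library shows how small the differences between genotypes were beside the differences between genes.

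**Figure D1:**
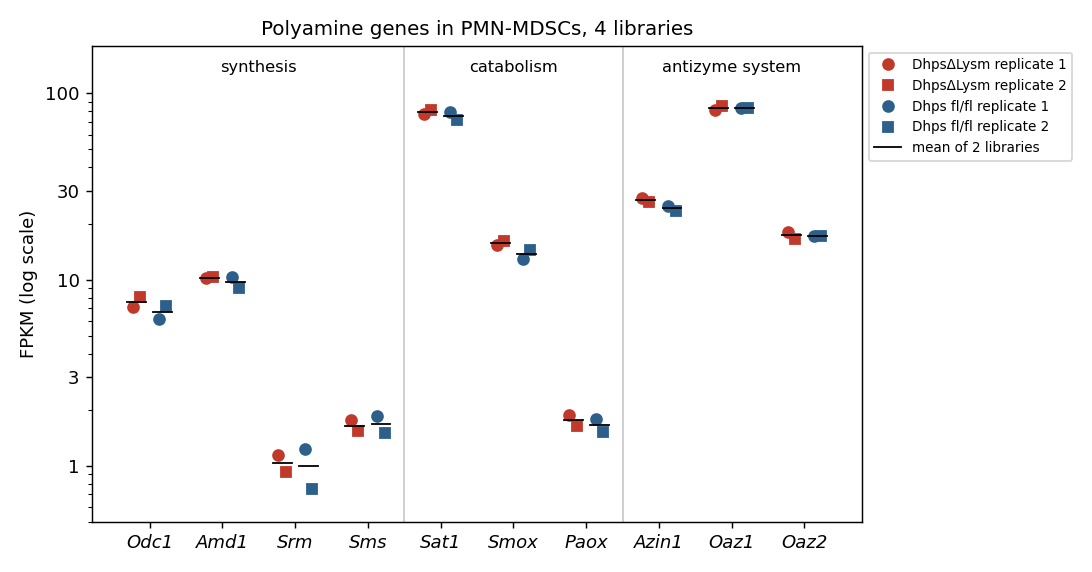
FPKM of the 10 polyamine genes (vertical axis, log scale) in the 2 DhpsΔLysm libraries (red) and the 2 Dhps fl/fl libraries (blue), with circles for replicate 1, squares for replicate 2 and black bars for the means. The levels run from 0.75 FPKM for *Srm* to 85.6 FPKM for *Oaz1*, and *Smox* and *Azin1* are the members whose red points all lie above the blue.

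No member differed between DhpsΔLysm and Dhps fl/fl past the test. By limma with Benjamini-Hochberg adjustment over all genes tested, 0 of 10 had an adjusted p under 0.05, and 0 of 10 had an unadjusted p under 0.05, against 0.00557% and 7.0% of all genes. The 1 gene called in the whole table was *Gm20716*, which is no polyamine gene and is named here after its value was seen. The log2 fold changes (DhpsΔLysm minus Dhps fl/fl, on the log2(FPKM + 0.1) scale) ran from -0.02 for *Sms* to 0.20 for *Smox*, with a median of 0.08, beside 0.01 over all genes. They were above 0 for 9 members, among them *Oaz1* at 0.0004, but for 7 once the libraries were scaled to a common sum, where *Oaz1* and *Oaz2* fell below 0. Over all genes, 52.2% were above 0 as deposited and 45.7% with the common sum. Both DhpsΔLysm libraries were above both Dhps fl/fl libraries for 2 members, *Smox* and *Azin1*, beside 20.0% of all genes. Both were below for 0 members, beside 16.0% of all genes. The share of 2 in 10 was thus that of all genes tested. In bulk libraries such as these, fewer cells of a type and less RNA per cell cannot be told apart.

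**Figure D2:**
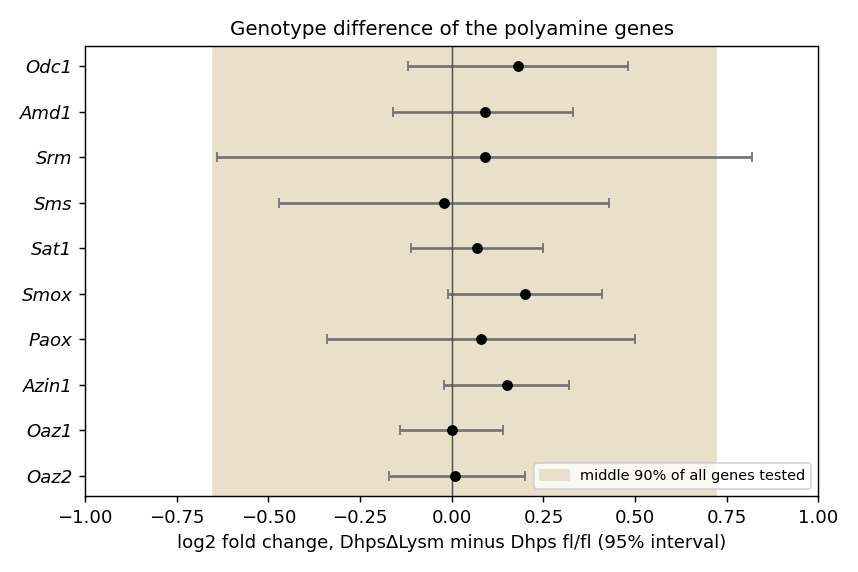
Log2 fold change of each polyamine gene, DhpsΔLysm minus Dhps fl/fl (points, horizontal axis), with its 95% interval from limma, and the middle 90% of all 17948 genes tested as a shaded band from -0.65 to 0.72. All 10 intervals include 0, and all 10 points lie inside the band.

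Among the synthesis genes, *Odc1* encodes ornithine decarboxylase, the enzyme of the step from ornithine to putrescine. It was at 7.09 and 8.02 FPKM in DhpsΔLysm, against 6.17 and 7.18 FPKM in Dhps fl/fl. The highest library was a DhpsΔLysm library and the lowest a control, but the ranges overlapped narrowly. The log2 fold change was 0.18 ± 0.12 (SE), with a 95% interval from -0.12 to 0.48 and an adjusted p of 0.81 in limma. *Myc*, whose product is a known activator of *Odc1*, was at 1.6 and 1.44 FPKM against 1.07 and 1.09 FPKM (log2 fold change 0.46 ± 0.16, limma adjusted p = 0.68), and its part in the values of *Odc1* was not tested. *Odc1* (ENSMUSG00000011179) lies on chromosome 12 from 17544794 to 17551505 on the plus strand of GRCm38, in the GENCODE M21 annotation.

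*Amd1* encodes S-adenosylmethionine decarboxylase, which makes the aminopropyl donor. Its mRNA has a short upstream open reading frame that is known to slow translation when polyamines are high, and that frame is shown here because transcript levels say nothing of this step. The start and stop codons are in capitals. It has 6 codons before the stop and lies in the 5′ untranslated region, at chr10:40302155-40302175 on the minus strand (GRCm38).
Amd1 upstream open reading frame: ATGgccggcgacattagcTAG
*Amd1* was at 10.19 and 10.32 FPKM in DhpsΔLysm, against 10.38 and 8.98 FPKM in Dhps fl/fl. The controls held both the highest and the lowest library, and the difference was 0.09 ± 0.10 on the log2 scale (95% interval -0.16 to 0.33). *Amd1* (ENSMUSG00000075232) lies on chromosome 10 from 40287458 to 40302186 on the minus strand.

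*Srm*, spermidine synthase, was the lowest of the 10, at 1.14 and 0.93 FPKM in DhpsΔLysm, against 1.23 and 0.75 FPKM in Dhps fl/fl. The controls again held both extremes. These levels correspond to roughly 30 to 50 fragments a library, where counting alone gives a coefficient of variation of 18.3% at the lowest. The means were 1.03 ± 0.15 FPKM in DhpsΔLysm and 0.99 ± 0.34 FPKM in Dhps fl/fl (SD, n = 2 each). The interval of the difference was the widest of the 10, from -0.64 to 0.82 on the log2 scale, or 0.64 to 1.77-fold. *Sms*, spermine synthase, was at 1.75 and 1.53 FPKM in DhpsΔLysm, against 1.84 and 1.5 FPKM in Dhps fl/fl, from about 166 to 209 fragments. Its log2 fold change was -0.02 ± 0.18 (95% interval -0.47 to 0.43), the only one below 0, and the controls spanned both DhpsΔLysm libraries. *Srm* (ENSMUSG00000006442) lies on chromosome 4 from 148591503 to 148594993 on the plus strand. The 4 synthesis genes summed to 20.2 and 20.8 FPKM in DhpsΔLysm and to 19.6 and 18.4 FPKM in Dhps fl/fl.

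Among the catabolic genes, *Sat1* encodes spermidine/spermine N1-acetyltransferase, which acetylates polyamines for export or oxidation. It was at 77.33 and 81.76 FPKM in DhpsΔLysm, against 79.26 and 72.18 FPKM in Dhps fl/fl. A control library lay between those of DhpsΔLysm, and the difference was 0.07 ± 0.07 (95% interval -0.11 to 0.25, or 0.93 to 1.19-fold). *Sat1* (ENSMUSG00000025283) and *Sms* (ENSMUSG00000071708) lie on the X chromosome, *Sat1* from 155213132 to 155216449 and *Sms* from 157443855 to 157492287, both on the minus strand. The 4 Y-linked genes looked at summed to between 7.07 and 8.07 FPKM in DhpsΔLysm and between 15.6 and 17.6 FPKM in Dhps fl/fl, and *Xist* was at 27.54 and 20.27 FPKM against 16.25 and 17.17 FPKM. None of these 5 genes overlapped between genotypes, as for 20.0% (higher) and 16.0% (lower) of all genes, and none passed the adjusted test, with adjusted p from 0.35 to 0.63 by limma with Benjamini-Hochberg adjustment. The log2 fold changes ran from -1.15 to -1.02 for the Y-linked genes, below the middle 90% of all genes tested (-0.65 to 0.72). That of *Xist* was 0.50. Female and male transcripts were thus in a different balance in the libraries of the 2 genotypes. The part of sex in the values of *Sat1*, *Sms* and the other members was not tested.

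*Smox*, spermine oxidase, turns spermine directly back into spermidine. It was at 15.30 and 16.13 FPKM in DhpsΔLysm, against 12.93 and 14.43 FPKM in Dhps fl/fl. Every DhpsΔLysm library was above every control. The log2 fold change of 0.20 ± 0.08 was the highest of the 10, with a 95% interval from -0.01 to 0.41 (0.99 to 1.33-fold), an unadjusted limma p of 0.061 and an adjusted p of 0.74. Without Dhps fl/fl replicate 2, the unadjusted p was 0.038 and the adjusted p 0.54. *Smox* (ENSMUSG00000027333) lies on chromosome 2 from 131491496 to 131525922 on the plus strand.

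*Paox*, the peroxisomal oxidase that acts on acetylated polyamines, was much lower, at 1.86 and 1.64 FPKM in DhpsΔLysm, against 1.78 and 1.52 FPKM in Dhps fl/fl. The libraries of the genotypes were interleaved, and the difference was 0.08 ± 0.16 (95% interval -0.34 to 0.50). *Paox* (ENSMUSG00000025464) lies on chromosome 7 from 140115799 to 140137224 on the plus strand. A small part of its exons, 2.9%, is shared with *Echs1* on the opposite strand, and whether strand was used in counting is not given in the sources used here. The 3 catabolic genes summed to 94.5 and 99.5 FPKM in DhpsΔLysm and to 94.0 and 88.1 FPKM in Dhps fl/fl, most of it from *Sat1*.

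In the antizyme system, *Azin1* encodes antizyme inhibitor, a relative of ornithine decarboxylase that has no decarboxylase activity and frees the enzyme from antizyme. It was at 27.43 and 26.11 FPKM in DhpsΔLysm, against 24.87 and 23.30 FPKM in Dhps fl/fl. As for *Smox*, the ranges did not overlap and DhpsΔLysm was higher. The log2 fold change was 0.15 ± 0.07 (95% interval -0.02 to 0.32, 0.99 to 1.25-fold), with an unadjusted limma p of 0.072 and an adjusted p of 0.75. *Azin1* (ENSMUSG00000037458) lies on chromosome 15 from 38487427 to 38519266 on the minus strand and shares 5.7% of its exon bases with *Gm49077* on the other strand. The neutrophil, monocyte, B cell, T cell and eosinophil marker sums given above were also higher in both DhpsΔLysm libraries than in both controls. For the neutrophil list the nearest sums were close, at 78140 against 77850 FPKM. Gene by gene, both DhpsΔLysm libraries were above both controls for 5 of 12 neutrophil and 8 of 8 monocyte and macrophage genes. The same held for 6 of 7 B cell, 4 of 6 T cell and 3 of 4 eosinophil genes, beside 20.0% of all genes. The part of these marker differences in the values of *Smox* and *Azin1* was not tested.

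*Oaz1* and *Oaz2* encode antizymes 1 and 2. Each mRNA holds a stop codon inside its coding region, at which ribosomes must shift by a base to complete the protein, and these stretches are shown because they are the point at which polyamines act on the antizymes. The capitals mark the last codon read in the first frame (TCC), the stop codon (TGA) and the base after it. The *Oaz1* window is chr10:80828268-80828327 and the *Oaz2* window chr9:65686245-65686304, both on the plus strand of GRCm38. The windows were read from retained-intron transcript models, in which the site is unbroken.
Oaz1 frameshift window: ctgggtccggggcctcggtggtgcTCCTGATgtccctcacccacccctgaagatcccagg
Oaz2 frameshift window: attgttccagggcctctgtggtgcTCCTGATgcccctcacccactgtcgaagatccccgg
Of the 60 bases of each window, 49 were identical between the genes. Because a continuous reading frame cannot pass this stop, several annotated coding models of *Oaz1* and *Oaz2* leave out 1 or 4 bases within the site. FPKM from fragments over the whole transcript do not show whether the frame was shifted.

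*Oaz1* was at 81.00 and 85.59 FPKM in DhpsΔLysm, against 83.09 and 83.39 FPKM in Dhps fl/fl, so the DhpsΔLysm libraries lay on either side of the controls. The log2 fold change was 0.00 ± 0.06, with a 95% interval from -0.14 to 0.14, or 0.91 to 1.1-fold, the narrowest interval of the 10. *Oaz2* was at 18.05 and 16.55 FPKM in DhpsΔLysm, against 17.15 and 17.13 FPKM in Dhps fl/fl, with the controls once more between the DhpsΔLysm libraries and a difference of 0.01 ± 0.07 (95% interval -0.17 to 0.20). The sign of both changed with the scaling between libraries. *Oaz1* (ENSMUSG00000035242) lies on chromosome 10 from 80826656 to 80829290 and *Oaz2* (ENSMUSG00000040652) on chromosome 9 from 65668001 to 65690300. The microRNA gene *Mir1982* lies within *Oaz1*, on the same strand, and covers 2.9% of its exon bases. The 3 antizyme system genes summed to 126.5 and 128.2 FPKM in DhpsΔLysm and to 125.1 and 123.8 FPKM in Dhps fl/fl.

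Of the members, 3 have a near-identical copy elsewhere in the genome that was listed separately, so fragments could have been divided between gene and copy, and the levels are uncertain to that extent. *Amd2* is a copy of *Amd1* without introns on the same chromosome, with 99.7% identity over 3198 aligned bases and the same upstream open reading frame, base for base. *Amd2* was at 1.24 and 1.59 FPKM in DhpsΔLysm, against 1.35 and 1.29 FPKM in Dhps fl/fl, and *Amd1* held between 86.6% and 89.2% of the summed FPKM of the pair. The processed pseudogene *Oaz1-ps* matches *Oaz1* in 99.9% of 681 aligned bases and was at 12.11 and 14.77 FPKM against 13.12 and 13.82 FPKM, which left *Oaz1* with between 85.3% and 87.0% of the pair. *Oaz2-ps* matches *Oaz2* in 98.5% of 537 bases, and *Oaz2* held between 91.4% and 94.3% of the FPKM of that pair. None of the 3 copies separated the genotypes. *Oaz1* and *Oaz2* themselves are 72.6% identical over 431 aligned bases.

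The balance between members was compared as ratios of FPKM within a library, which a common factor for a library cannot change. The ratio of *Oaz1* to *Azin1*, that is of antizyme to antizyme inhibitor transcripts, was 2.95 and 3.28 in DhpsΔLysm and 3.34 and 3.58 in Dhps fl/fl. Both DhpsΔLysm ratios were lower than both control ratios, with means of 3.12 ± 0.23 and 3.46 ± 0.17 (SD, n = 2 each) and a two-sided exact permutation p of 0.33, which is the smallest that 2 against 2 libraries can give. The ratio of *Odc1* to *Azin1* was 0.258 and 0.307 in DhpsΔLysm and 0.248 and 0.308 in Dhps fl/fl, so that *Odc1* was below *Azin1* in every library. The summed synthesis genes over the summed catabolic genes gave 0.213 and 0.209 in DhpsΔLysm and 0.209 in both control libraries, a difference of means of 0.00238 that left the genotypes just separated (exact permutation p = 0.33). Without Dhps fl/fl replicate 2 the difference in the *Oaz1* to *Azin1* ratio was -0.225 and without DhpsΔLysm replicate 1 it was -0.182, against -0.344 with all 4 libraries. The synthesis to catabolism difference was 0.000139 without DhpsΔLysm replicate 1 and 0.00462 without DhpsΔLysm replicate 2. The other 5 ratios overlapped between genotypes. Among these, *Oaz1* to *Oaz2* ran from 4.49 to 5.17, *Sat1* to *Paox* from 41.6 to 49.9, and *Srm* to *Sms* from 0.50 to 0.668.

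**Figure D3:**
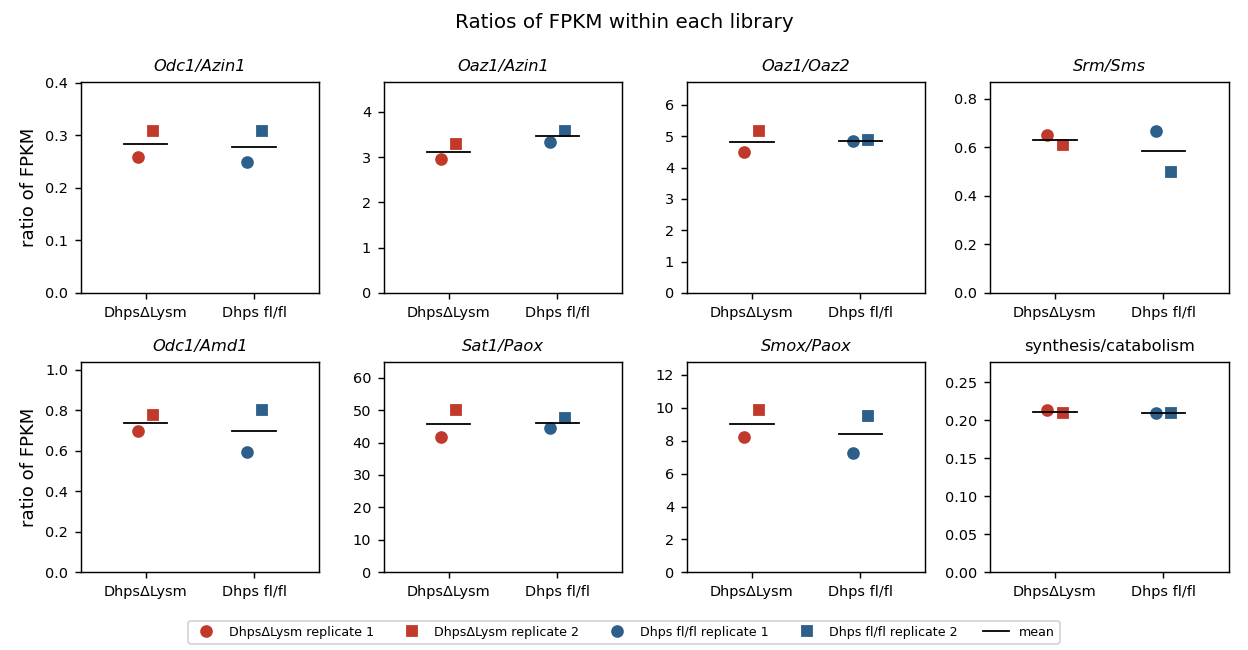
Ratios of FPKM within each library (vertical axes from 0) in DhpsΔLysm (red) and Dhps fl/fl (blue), with circles for replicate 1, squares for replicate 2 and bars for the means. Only the *Oaz1* to *Azin1* ratio and the synthesis to catabolism ratio have no overlap between genotypes, the latter by less than the symbols show.

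The other genes of the pathway were taken from 5 lists with 32 genes, of which 30 were listed and 22 passed the filter of a mean of at least 0.1 FPKM. Of these 22, 0 passed limma's adjusted test and 3 had an unadjusted p under 0.05, which were *Dhps*, *Mri1* and *Atp13a3*, beside 0.00557% and 7.0% of all genes. Each of the 3 lost its unadjusted call in some alternatives, and the highest unadjusted limma p was 0.13 for *Dhps* (DhpsΔLysm replicate 1 left out), 0.075 for *Mri1* and 0.16 for *Atp13a3* (DhpsΔLysm replicate 2 left out). The log2 fold changes were above 0 for 14 and below 0 for 8, beside 52.2% of all genes above 0. Both DhpsΔLysm libraries were above both controls for 7 of the 22 and below them for 3, beside 20.0% and 16.0% of all genes. *Dhps*, the targeted gene, is among the 22, the 3 unadjusted calls and the 3 below both controls. A lower level of *Dhps* was intended by the design.

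*Oat*, ornithine aminotransferase, which interconverts ornithine and a glutamate semialdehyde, was at 10.09 and 10.78 FPKM against 8.96 and 9.37 FPKM (0.18 ± 0.08, limma adjusted p = 0.74), without overlap between genotypes.

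In the supply and salvage of S-adenosylmethionine, 5 of 8 genes had both DhpsΔLysm libraries above both controls and 1 had both below, beside the 20.0% and 16.0% of all genes. The 1 below was *Mat2a*, on the supply side, which had the highest mean of the 8 and is named with its values known. It was at 14.69 and 13.65 FPKM against 15.5 and 16.34 FPKM (-0.17 ± 0.07, limma adjusted p = 0.75). *Adi1*, an enzyme of methylthioadenosine salvage, was at 1.87 and 1.78 FPKM against 1.15 and 1.64 FPKM (0.38 ± 0.21), and *Apip*, of the same route, was at 6.55 and 6.61 FPKM against 6.41 and 4.59 FPKM (0.27 ± 0.17). Without Dhps fl/fl replicate 1 the log2 fold change was 0.15 for *Adi1* and 0.51 for *Apip*, and the values were 0.62 and 0.04 when Dhps fl/fl replicate 2 was left out. *Mri1*, of this route too, was chosen for mention with its values known. Its levels were 1.01 and 0.86 FPKM against 0.46 and 0.52 FPKM, and its log2 fold change was 0.81 ± 0.23, with an adjusted p of 0.58 by limma with Benjamini-Hochberg adjustment. None of the genes named from this list passed that test.

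Among the transport genes, *Atp13a3*, which codes for a polyamine-transporting ATPase, was at 14.80 and 13.29 FPKM in DhpsΔLysm, against 17.53 and 16.19 FPKM in Dhps fl/fl. Both DhpsΔLysm libraries were lower, with a log2 fold change of -0.26 ± 0.09, an unadjusted limma p of 0.029 and an adjusted p of 0.65. *Gpc1*, a glypican that has been tied to polyamine uptake, was at 29.73 and 27.02 FPKM against 28.58 and 32.02 FPKM and overlapped (-0.09 ± 0.09). Of hypusination, the step in which *Dhps* acts, *Dohh* (deoxyhypusine hydroxylase) was at 2.61 and 2.19 FPKM against 1.96 and 2.15 FPKM, a difference of 0.21 ± 0.15, with 47.5% of its exon bases shared with *Gm48551*. *Eif5a* encodes the protein that is modified, and was likewise chosen with its values known. It was at 110.9 and 107.5 FPKM against 98.8 and 108.2 FPKM (0.08 ± 0.07) and overlapped.

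**Figure D4:**
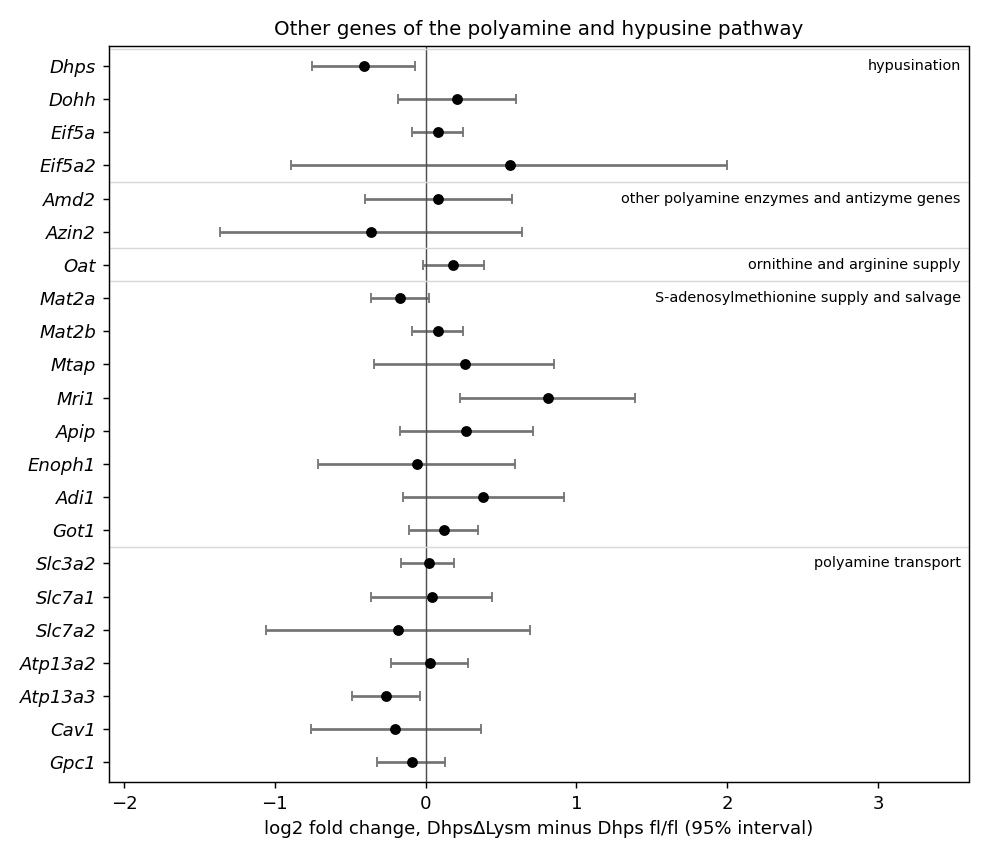
Log2 fold change, DhpsΔLysm minus Dhps fl/fl (points, horizontal axis), with 95% intervals from limma, for the 22 other pathway genes tested, in 5 lists separated by grey lines. The intervals of *Dhps* and *Atp13a3* lie below 0 and that of *Mri1* above, before adjustment for the number of genes tested.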

How the data were processed

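The values are FPKM per gene, rounded to 2 decimals, which the authors calculated with StringTie and ballgown after filtering the reads with Cutadapt and aligning them with HISAT2. The build in the submitters' processing notes is mm10; the annotation and the use of strand are not given in the sources used here. FPKM are scaled by transcript length and mapped fragments, and the files give no read counts. Steps between low values gave about 29800000 to 31900000 fragments a library, but only 43.1% to 45.4% of the values lay near whole steps (30% by chance), so whole reads were not recovered and no count test was made. Fragments per gene are approximate.

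The genes and lists were chosen with earlier results of these data known. The 17948 genes averaging 0.1 FPKM or more were compared on log2(FPKM + 0.1) with limma 3.58.1 in R 4.3.3 (eBayes with trend), unpaired, with Benjamini-Hochberg adjustment at 0.05. A fold change on this scale understates that of low genes. The fit was tested on simulated data with 200 changed genes. It called 33.2% of true absolute log2 changes of 0.5 and 81.4% of those of 1. On average it also called 13.7 unchanged genes. Ratios were tested by exact permutation. Named were the 10 members, *Dhps*, *Lyz2*, the copies, and per pathway list the 2 largest absolute changes among genes averaging 1 FPKM or more. Marker lists were summed. *Agmat* and *Slc22a2* were not analysed here. Some genes of the pathway lists are not reported here and were left out of their counts. Positions and sequences are from GENCODE M21 (GRCm38), in which 28511 of 28585 identifiers matched. The alternatives were other pseudocounts (0.01 and 1), filters, scalings, no trend, a replicate block and leaving out each library.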

Additional observations from a re-analysis of the deposited data

How the results depend on the processing

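No member passed limma's adjusted test under any of the 13 alternatives, where the lowest adjusted p of a member was 0.54, and *Odc1*, *Sat1*, *Smox* and *Azin1* kept their sign throughout, though not their size. Of 130 log2 fold changes of the members, 15 changed sign. *Oaz1* was at -0.01 with size factors, -0.04 with quantile normalisation and -0.03 with a common sum (TPM), and *Oaz2* was at -0.01 with quantile normalisation and -0.02 with a common sum. The median over all genes moved as well, from 0.01 as deposited to -0.0014, -0.0106 and -0.02 under these 3 scalings, a shift of about the size of these changes. Leaving out a library gave ranges that crossed 0 for *Amd1* (-0.02 to 0.19), *Srm* (-0.23 to 0.41), *Sms* (-0.16 to 0.12), *Paox* (-0.03 to 0.19), *Oaz1* (-0.04 to 0.04), *Oaz2* (-0.05 to 0.07), *Amd2* (-0.08 to 0.25), *Oaz1-ps* (-0.15 to 0.13) and *Oaz2-ps* (-0.14 to 0.33). It gave 0.07 (without Dhps flox replicate 1) to 0.29 (without Dhps flox replicate 2) for *Odc1*, 0.0046 (without Dhps flox replicate 2) to 0.14 (without Dhps flox replicate 1) for *Sat1*, 0.12 (without Dhps flox replicate 1) to 0.28 (without Dhps flox replicate 2) for *Smox*, and 0.11 to 0.20 for *Azin1*. The ranges were 0.09 to 0.33 for *Dohh*, 0.01 to 0.14 for *Eif5a* and -0.18 to -0.01 for *Gpc1*. The number of members with an unadjusted p under 0.05 was then 0 to 1, being 1 (*Smox*) without Dhps flox replicate 2. With 1 library left in an arm, which is assumed to vary like the others, 5 to 7 of the 10 members separated the genotypes, beside 62.8% to 71.0% of all genes. The difference in the synthesis to catabolism ratio was 0.0072 after quantile normalisation, against 0.00238, and the cause was not tested.

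Over all genes, 1 passed the adjusted test, against 4 with a mean of at least 1 FPKM, 2 with quantile normalisation, 0 with no filter, 0 with a pseudocount of 0.01, and 0 without each library in turn. The unadjusted call of *Dhps* was lost without Dhps cko replicate 1, Dhps cko replicate 2 or Dhps flox replicate 1 and with the replicate block, that of *Mri1* without Dhps cko replicate 1 or Dhps flox replicate 1, and that of *Atp13a3* without Dhps cko replicate 2, either Dhps flox replicate, or the trend. With the replicate number as a block the count was 0, and the members past the test stayed at 0. The numbers do not pair the libraries by the labels, and deviations of same-numbered libraries did not correlate (r = -0.00615 over 17948 genes, which are not independent). *Lyz2* passed at an adjusted limma p of 0.0087 with a mean of at least 1 FPKM and of 0.0084 with quantile normalisation.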
